A study of Mus musculus with 16 samples.

Results

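Vascular smooth muscle cells were followed in a Drop-seq series of the mouse hypothalamus and preoptic area (hypothalamus-POA). Members were chosen by a rule on detected transcripts. A barcode was kept when it had over 200 but under 4000 genes, and when mitochondrial genes took under 15% of its UMIs (counted molecules). A kept cell was a member when at least 3 of the 8 markers *Acta2*, *Myh11*, *Tagln*, *Pln*, *Tpm2*, *Myl9*, *Mustn1* and *Lmod1* had a UMI, *Acta2* or *Myh11* among them, and when at most 1 of 12 genes of other brain cell types (*Mog*, *Mag*, *Agt*, *Aqp4*, *Snap25*, *Syt1*, *Cldn5*, *C1qa*, *C1qb*, *Pdgfra*, *Tmem212*, *Dcn*) did. This rule took 1741 of 55675 kept cells, or 3.13%, with 15 to 283 members in each of the 16 libraries.

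Smooth muscle cells wrap the arteries and arterioles of the brain, and they set vessel diameter by the interaction of actin with smooth muscle myosin, driven by calcium and by phosphorylation of the myosin light chain. Pericytes, their neighbours on capillaries, share the name mural cell with them but hold little of this contractile apparatus. Serum response factor and its partner myocardin drive many smooth muscle genes through a promoter element called the CArG box.

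Each library came from 1 female mouse on a CD-1;129P2 mixed background, 8 to 10 weeks old at the start. Wild-type mice were *Cre*-negative littermates of the *Esr1*cKO mice, in which a Cre transgene under *Nkx2-1* control deletes floxed *Esr1*, the gene of estrogen receptor alpha, in cells with a history of *Nkx2-1* expression. Mice received tamoxifen at 0.1 mg/kg subcutaneously, or the corn oil vehicle, in 28 daily injections, and were killed 2 h after the last. The 4 groups held 3 oil-treated and 5 tamoxifen-treated wild-type mice, and 4 oil-treated and 4 tamoxifen-treated *Esr1*cKO mice. Mice were processed on 4 days, 4 a day, and the labels do not say which mouse belongs to which day.

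A value in CPM is the number of UMIs of a gene per 1000000 UMIs, taken over the summed members of a library, and the spread is the SD over libraries. The members of a library summed to between 8808 and 298091 UMIs, the fewest in oil-treated wild-type mouse 1, which had 15 members. A member had a median of 721 UMIs and 515 genes, with 7.29% of UMIs on mitochondrial genes, against 675 UMIs and 488 genes in all other kept cells. Among 54478 distinct kept barcodes, 520 occurred in 2 or more libraries. The 6 pairs among the libraries numbered 13 to 16 (tamoxifen-treated wild-type mice 4 and 5, oil-treated *Esr1*cKO mouse 4 and tamoxifen-treated *Esr1*cKO mouse 4) shared 303 to 359 barcodes each, and the other 114 pairs shared 0 to 42, with a median of 1. Of the members, 32 had a barcode that was also kept in another library. *Nkx2-1* itself had 0 UMIs in the 1741 members (exact upper bound 0.212%, which limits cells with a UMI and not cells that express the gene), so these cells gave no readout of the Cre driver, and 3′ tags of *Esr1* cannot show whether its floxed exon was deleted.

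The libraries numbered 10 and 11 (oil-treated wild-type mouse 3 and tamoxifen-treated *Esr1*cKO mouse 3) stood apart from the other 14. Over all kept cells, 269 of 7502 genes with at least 20 CPM in each of the other libraries were more than 4 times lower in both than in the lowest of the others, and 0 genes were so for any of the other 119 pairs of libraries. The correlation of log2(CPM + 1) over 9227 genes, which are not independent replicates, was 0.97 between the 2 libraries, 0.67 to 0.79 between either of them and another library, and 0.91 to 0.98 among the others. In the members, *Myo3a* had 0 UMIs in both and 73 to 1544 UMIs in each other library, and *Prkg1*, a cGMP-dependent kinase, stood at 57.5 and 77.8 CPM in them and at 167 to 454 CPM elsewhere. They are also the 2 libraries whose barcodes all had at least 100 genes. What set them apart was not tested. Values without both, an alternative chosen after seeing the data, are given beside the results they touch.

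All 8 markers were far above their level in other kept cells in 16 of 16 libraries, as the rule requires. *Acta2*, smooth muscle alpha actin, stood at 7660 ± 1990 CPM in the members (SD, n = 16 libraries) and at 49.1 CPM in all other kept cells. *Myh11*, the smooth muscle myosin heavy chain, stood at 3892 ± 682 CPM against 34.01 CPM. *Myl9*, the regulatory light chain that is phosphorylated for contraction, stood at 5183 ± 1205 CPM, and also at 1327 CPM in pericytes. *Tpm2*, a tropomyosin, was at 2899 ± 624 CPM, *Tagln*, an actin-bundling protein, at 1261 ± 488 CPM, and *Pln*, the phospholamban that restrains the calcium pump of the sarcoplasmic reticulum, at 1039 ± 311 CPM. *Lmod1*, a nucleator of actin filaments, was at 876 ± 242 CPM and *Mustn1* at 814 ± 148 CPM. These values describe the choice of cells and were not tested.

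The identity of the cells was checked with genes outside the rule. Of a list of 33 other genes of the contractile apparatus, 33 had a higher mean CPM in the members than in other kept cells, and 25 did so in all 16 libraries. The median log2 ratio over this list was 2.85. The 15 genes outside the rule with the largest ratio, among those with at least 50 UMIs in the members, were led by *Cnn1* (calponin, which binds actin and tempers myosin activity), at 233 ± 171 CPM against 1.31 CPM, or 177-fold. They were followed by *Myom1*, *Olfr558*, *Aoc3*, *Gm11547*, *Olfr78*, *Nkx6-1*, *Fbxl22*, *Hspb2*, *Map3k7cl*, *Filip1l*, *Des* (the intermediate filament desmin), *Dmp1*, *Aspn* and *Pdlim3*, whose ratios ran from 77.9 down to 36.0. Of these 15 genes, 5 are on the contractile list, 2 on the list of vasoactive genes and 8 on no list used here, among them the homeobox gene *Nkx6-1* at 144 ± 126 CPM against 2.26 CPM, and *Aoc3*, a vascular amine oxidase, at 114 ± 59.9 CPM against 1.73 CPM.

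**Figure D1:**
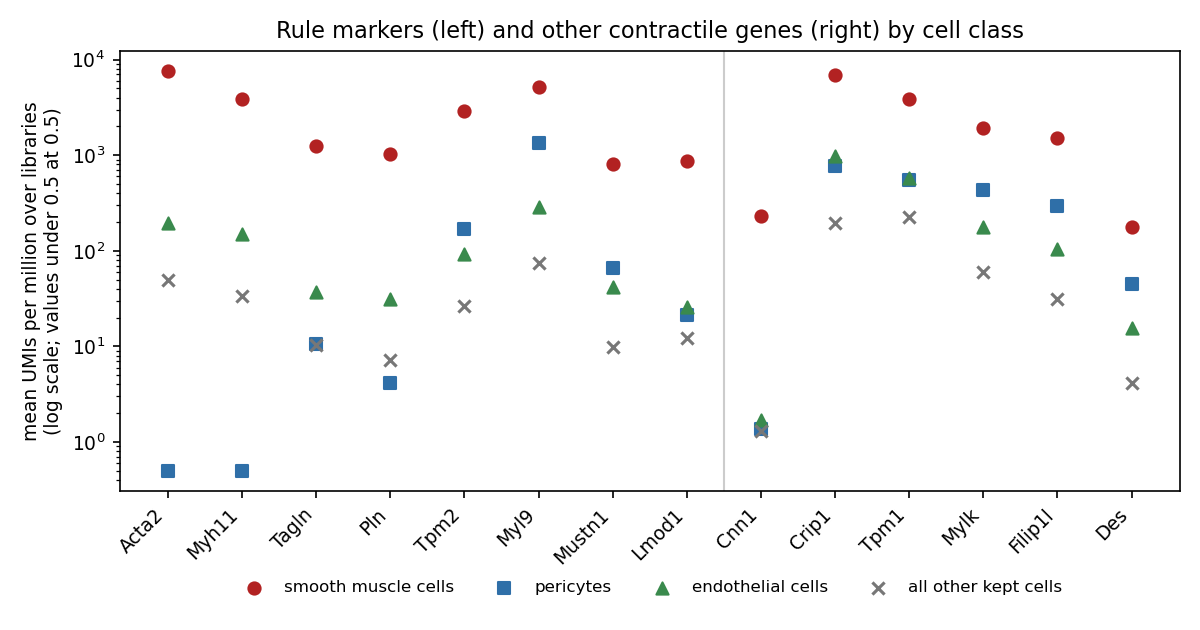
Mean level over libraries (CPM, log axis) of the 8 rule markers, left of the line, and of 6 other contractile genes, right of it, in smooth muscle cells, pericytes, endothelial cells and all other kept cells. Smooth muscle cells hold the highest mean for every gene drawn, and pericytes come closest for *Myl9*, at 1327 against 5183 CPM.

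The force-producing machinery was seen with most of its parts. *Crip1*, a small LIM-domain protein, was at 6984 ± 1723 CPM and found in 96.4% of members, *Cald1* (caldesmon, an actin-binding brake on myosin) at 5842 ± 1679 CPM and *Tpm1* at 3852 ± 667 CPM. *Mylk*, the kinase that phosphorylates the myosin light chain, was at 1921 ± 420 CPM against 60.2 CPM in other kept cells, and *Ppp1r12a*, the targeting subunit of the opposing phosphatase, at 1226 ± 288 CPM against 161 CPM. *Actg2*, the actin of visceral smooth muscle, had 59 UMIs in all members. Calcium handling was more evenly shared with other cells. *Mrvi1*, a partner of the inositol trisphosphate receptor in nitric oxide relaxation, was at 264 ± 62.3 CPM against 10.9 CPM, and the chloride channel *Ano1* at 310 ± 88.3 CPM against 22.7 CPM. The calcium pump *Atp2a2* was at 545 ± 168 CPM against 228 CPM. Of 29 calcium and ion channel genes in the files, 22 had a higher mean than in other kept cells and 8 did so in all libraries, while *Ryr2* and *Ryr3*, release channels of the sarcoplasmic reticulum, had lower means, at 42.3 against 59.0 CPM and 64.7 against 131 CPM. *Ryr3* had 0 UMIs in the members of libraries 10 and 11.

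Of 40 vasoactive receptor and signalling genes in the files, 26 had a higher mean in the members than in other kept cells, and 16 did so in all libraries. The list summed to 14593 ± 1325 CPM in the members, 19519.8 ± 5392 CPM in pericytes and 3483 ± 257 CPM in other kept cells. *Olfr558* and *Olfr78*, odorant receptors known from blood vessels, stood at 441 ± 148 and 115 ± 72.4 CPM, against 6.57 and 1.76 CPM in other kept cells, and *Olfr558* was found in 30.6% of members (exact Clopper-Pearson 95% interval 28.5% to 32.8%, which covers counting error only). *Npy1r*, the receptor through which neuropeptide Y constricts vessels, was at 183 ± 73.6 CPM against 10.8 CPM, and *Ednra*, the endothelin receptor of smooth muscle, at 130 ± 56.9 CPM against 8.13 CPM. *P2rx1*, an ATP-gated channel, was at 56.6 ± 25.3 CPM, and *Ptgir*, the prostacyclin receptor, at 24.6 ± 23.2 CPM on 39 UMIs. Relaxing signals were met by *Gucy1a3* and *Gucy1b3*, the subunits of the nitric oxide receptor guanylyl cyclase, at 422 ± 70.5 and 515 ± 105 CPM, and by *Pde5a*, the phosphodiesterase that ends the signal, at 406 ± 105 CPM. The alpha-1 adrenergic receptors were sparse. *Adra1a* had 6 UMIs, *Adra1b* 8 and *Adra1d* 0 in the 1741 members. *Agtr1a*, an angiotensin receptor, had 9 UMIs and *Avpr1a*, a vasopressin receptor, had 2.

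The estrogen receptors differed among themselves. *Gper1*, the membrane G protein-coupled estrogen receptor, had 433 UMIs in the members, at 238 ± 76.8 CPM (112 to 377 CPM over 16 libraries), against 11.4 CPM in other kept cells, 41.5 CPM in endothelial cells and 326 CPM in pericytes. It was found in 19.6% of members (17.8% to 21.6%), with a median of 721 UMIs per cell, and in 0.0765% of 9149 oligodendrocytes (kept cells with at least 4 oligodendrocyte genes, *Mog* and *Mag* among those searched), with a median of 780. Thinned to 300 UMIs per cell, which left out 69 members, the share was 7.89% (6.65% to 9.29%) in the members, 10.4% in pericytes and 0.0447% in oligodendrocytes. *Esr1* had 41 UMIs, at 23.6 ± 22.0 CPM against 45.8 CPM in other kept cells, and its 2.24% of members (1.60% to 3.05%) lay at the level of oligodendrocytes, 2.40%, which is read here as background. Thinned, *Esr1* was found in 0.837% of members and 0.670% of oligodendrocytes. *Esr2*, estrogen receptor beta, rested on 28 UMIs and *Pgr*, the progesterone receptor, on 9. The glucocorticoid receptor *Nr3c1* was at 168 ± 46.2 CPM, under its 205 CPM in other kept cells.

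Of 28 mural transcription and Notch genes in the files, 25 had a higher mean than in other kept cells, and 14 did so in all libraries. The list summed to 6691 ± 886 CPM in the members, 6144 ± 1334 CPM in pericytes and 1461 ± 154 CPM in other kept cells. *Klf2* and *Klf4*, factors of vessel wall cells, stood at 1344 ± 501 and 755 ± 318 CPM. *Myocd*, the myocardin coactivator, stood at 68.9 ± 50.9 CPM against 6.32 CPM in other kept cells, and *Srf* at 77.6 ± 54.0 CPM against 30.02 CPM. *Tbx2* and *Tbx18*, T-box factors of mural cells, were at 171 ± 51.3 and 110 ± 58.4 CPM, and *Foxs1* at 43.7 ± 28.3 CPM. The Notch pathway, which holds arterial smooth muscle in its mature state, was represented by the receptor *Notch3* at 332 ± 68.5 CPM, the ligand *Jag1* at 245 ± 58.6 CPM and the target *Hey2* at 115 ± 30.8 CPM, all above other kept cells in 16 of 16 libraries. *Tcf21* had 0 UMIs.

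The CArG box was searched on both strands of the 250 bases before the start of each gene in a RefSeq promoter table (GRCm38.p6). It was found in 439 of 27025 genes, or 1.62%. Of the 41 rule and contractile genes, 34 had an entry in the table and 5 of these, or 14.7%, held the box: *Myl9*, *Myl6*, *Vcl*, *Ldb3* and *Filip1l*. *Srf* itself held one, as did *Egr2* and *Zfp36* of the 25 immediate early genes in the table, and 0 of 7 pericyte markers did. The lines that follow give the 3 smooth muscle genes whose window does not touch an exon, from 5′ to 3′ on the strand of the gene, with the box in capitals, chosen to set the same element beside differing levels of transcript (5183, 63.3 and 1509 CPM for *Myl9*, *Vcl* and *Filip1l*). The *Myl9* stretch lies at chr2:156775263-156775352 and the *Vcl* stretch at chr14:20929148-20929220, both on the plus strand and between genes. The *Filip1l* stretch lies at chr16:57549140-57549229 on the plus strand, in introns of *Cmss1* and *Filip1l*.
Myl9: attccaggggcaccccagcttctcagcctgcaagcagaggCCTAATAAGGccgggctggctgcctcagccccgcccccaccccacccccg
Vcl: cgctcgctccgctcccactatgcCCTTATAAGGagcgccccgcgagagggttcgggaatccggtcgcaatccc
Filip1l: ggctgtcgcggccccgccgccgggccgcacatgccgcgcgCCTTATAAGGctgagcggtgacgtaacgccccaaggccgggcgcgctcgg
The box starts 161, 227 and 62 bases before the gene start in *Myl9*, *Vcl* and *Filip1l*. The match is a description of these letters and says nothing of binding. *Vcl* and *Filip1l* carry the same 10 bases, while their levels over other kept cells differed, at 2.01-fold and 48.2-fold.

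The members were not uniform. *Acta2* and *Myh11* were both found in 1494 members (85.8%), *Acta2* without *Myh11* in 180 and *Myh11* without *Acta2* in 67. The number of rule markers found in a cell went from 3, in 186 members, to 8, in 228. Each cell was then thinned to 300 UMIs, which made depth equal in the sums but not in the grouping, made on full counts. Median full UMIs ran from 538 in cells with 4 markers to 983.5 in cells with 8. The summed rule markers went from 8718 CPM in cells with 3 markers to 42368 CPM in cells with 8, as the counting of markers implies. The transcripts of neighbouring cell types went the other way. Endothelial markers stood at 7771 CPM in cells with 3 markers and 1009 CPM in cells with 8, and pericyte markers at 4043 and 1330 CPM, both given without a test. Just outside the rule lay 194 cells with 2 markers (2770 CPM of rule markers and 13601 CPM of endothelial markers in the full counts), 178 cells with 2 exclusion genes, which had a median of 3348.5 UMIs, and 31 cells with 3 markers but neither *Acta2* nor *Myh11*.

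**Figure D2:**
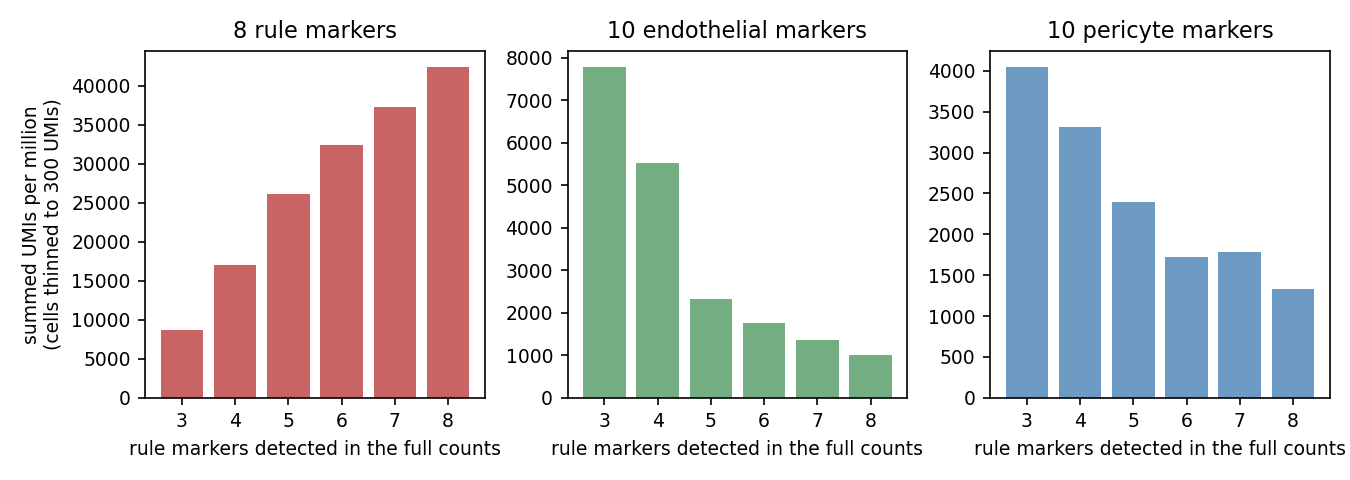
Summed level (CPM, cells thinned to 300 UMIs) of the 8 rule markers, 10 endothelial markers and 10 pericyte markers in members grouped by the number of rule markers found in their full counts. Rule markers are at 8718 in the group with 3 and 42368 in the group with 8, while endothelial markers are at 7771 and 1009.

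A set of 288 members (16.5%) held at least 3 of the 8 endothelial genes *Cldn5*, *Flt1*, *Pecam1*, *Ly6c1*, *Itm2a*, *Slco1a4*, *Pltp* and *Ly6a*. They had a median of 2031 UMIs, against 646 in the other 1453 members. Their rule markers summed to 7100 CPM and their endothelial markers to 14897 CPM, against 33923 and 230 CPM in the others. Pooled over all members these lists stood at 23047 and 6177 CPM. Being deeper, the 288 weighed more in sums of UMIs, and so in all member levels, than their 16.5% of cells. *Gkn3*, a gene of arterial endothelium, was at 2416 CPM in them and at 17.1 CPM in the others. In contrast, 1311 members (75.3%) had no endothelial gene at all. Of the exclusion genes, *Cldn5*, of endothelial tight junctions, was the one found most often, in 179 members, and 1347 members had none of the 12. At least 2 pericyte genes were found in 372 members and at least 3 fibroblast genes in 5. Whether endothelial transcripts in a member came from a second cell in the droplet, from an attached fragment or from free RNA was not tested. Over all members, endothelial markers summed to 5851 CPM (0 to 9886 over libraries), oligodendrocyte markers to 1350 CPM, neuron markers to 305 CPM and microglia markers to 58.8 CPM, against 2848, 17920.3, 6651 and 1253 CPM in other kept cells.

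To see what sets smooth muscle apart from its nearest relative, members were compared with pericytes of the same mice. Pericytes were kept cells with at least 2 of *Vtn*, *Kcnj8*, *Abcc9*, *Higd1b*, *Atp13a5* and *Art3*, no UMI of *Acta2* or *Myh11*, and at most 1 exclusion gene. They numbered 699, with a median of 405 UMIs. Counts were summed per class and mouse and tested with edgeR's quasi-likelihood test with the mouse as a term, over 15 libraries (oil-treated *Esr1*cKO mouse 1 had 6 pericytes and was left out). Genes of both rules were left out, but the classes were drawn by genes of the same contrast, so that contractile genes were bound to follow. A gene could also pass the low-count filter through 1 class alone, and a gene near absent from the other class could then differ in 1 direction only. Of 658 genes tested, 213 were higher in smooth muscle cells (32.4%) and 169 lower (25.7%) at an adjusted p (Benjamini-Hochberg) under 0.05, with a median log2 fold change of 0.09 over all genes. Without the 288 members with endothelial genes, an alternative chosen after seeing the data, 117 were higher and 123 lower of 413 tested. Without the barcodes that libraries share, 199 were higher and 178 lower. Without libraries 10 and 11, 162 were higher and 160 lower of 608.

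The 10 genes with the largest change toward smooth muscle cells, among those higher in every library where either class had a UMI, were *Gkn3*, *Nexn*, *Sorbs2*, *Palld*, *Errfi1*, *Ly6c2*, *Rasd1*, *Sncg*, *Map3k7cl* and *Ccnd2*. Each had only 5 to 18 UMIs in all pericytes, so its direction was nearly fixed by the filter. *Nexn*, an actin-binding protein of muscle, was at 454 ± 160 CPM in smooth muscle cells and 10.3 ± 26.4 CPM in pericytes, a log2 change of 4.54 (SE 0.35, edgeR adjusted p = 2.3e-13). *Sorbs2*, an adaptor of stress fibres, was at 961 ± 301 against 41.2 ± 58.1 CPM, a log2 change of 4.22 (SE 0.25, edgeR adjusted p = 3.8e-16). *Palld*, which links actin filaments, had a log2 fold change of 4.06 (SE 0.32, edgeR adjusted p = 3.3e-13). *Errfi1*, an inhibitor of the EGF receptor, had 4.01 (SE 0.31), *Rasd1*, a steroid-inducible Ras-like protein, 3.66 (SE 0.31), *Sncg*, gamma-synuclein, 3.62 (SE 0.24), and *Ccnd2*, cyclin D2, 3.52 (SE 0.24). For these 7 genes the log2 fold change without the endothelial-bearing members lay between 3.52 and 4.88. *Map3k7cl* (3.62), *Gkn3* (4.63) and *Ly6c2* (3.71) had too few UMIs for a test there. The levels of *Gkn3* and *Ly6c2* in members under 3 endothelial genes were 17.1 and 12.3 CPM, against 2416 and 971 CPM in the 288. *B2m*, *Bsg* and *H2-D1* were higher in smooth muscle cells over all members and lower without the 288, past the threshold both times, with log2 fold changes of 0.65 and -1.32, 1.53 and -0.86, and 0.51 and -1.44. Of the 213 genes that were higher, 159 were tested without the 288, and 113 of these were again called higher.

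The 10 genes with the largest change toward pericytes were chosen in the same way, with 39 to 1048 UMIs each in smooth muscle cells and 143 to 1331 in pericytes. *Uchl1* had a log2 fold change of -4.26 (SE 0.23, edgeR adjusted p = 2.0e-17) and *Slc6a20a*, a proline transporter, one of -3.76 (SE 0.15, edgeR adjusted p = 8.9e-21). *Ptn*, the growth factor pleiotrophin, was at 540 ± 225 CPM in smooth muscle cells and 4058 ± 653 CPM in pericytes (log2 change -3.08 ± 0.15 SE, edgeR adjusted p = 3.2e-18). *Sod3*, *Marcks*, *P2ry14* (a receptor for UDP-glucose), *Sept4*, *Cthrc1*, *Ecm2* and *Car4* completed the 10, with log2 fold changes of -2.97 to -2.61. Of the 169 genes that were lower, 100 were tested without the endothelial-bearing members, 95 were called there and 0 changed sign. The pericytes held transcripts of other cells too. Pooled neuron markers stood at 1381 CPM in pericytes and 331 CPM in the members, and astrocyte markers at 919 and 374 CPM. Endothelial markers went the other way, at 839 and 6177 CPM. How much of the level of *Uchl1* or the other 9 genes in pericytes came from other cells was not tested.

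**Figure D3:**
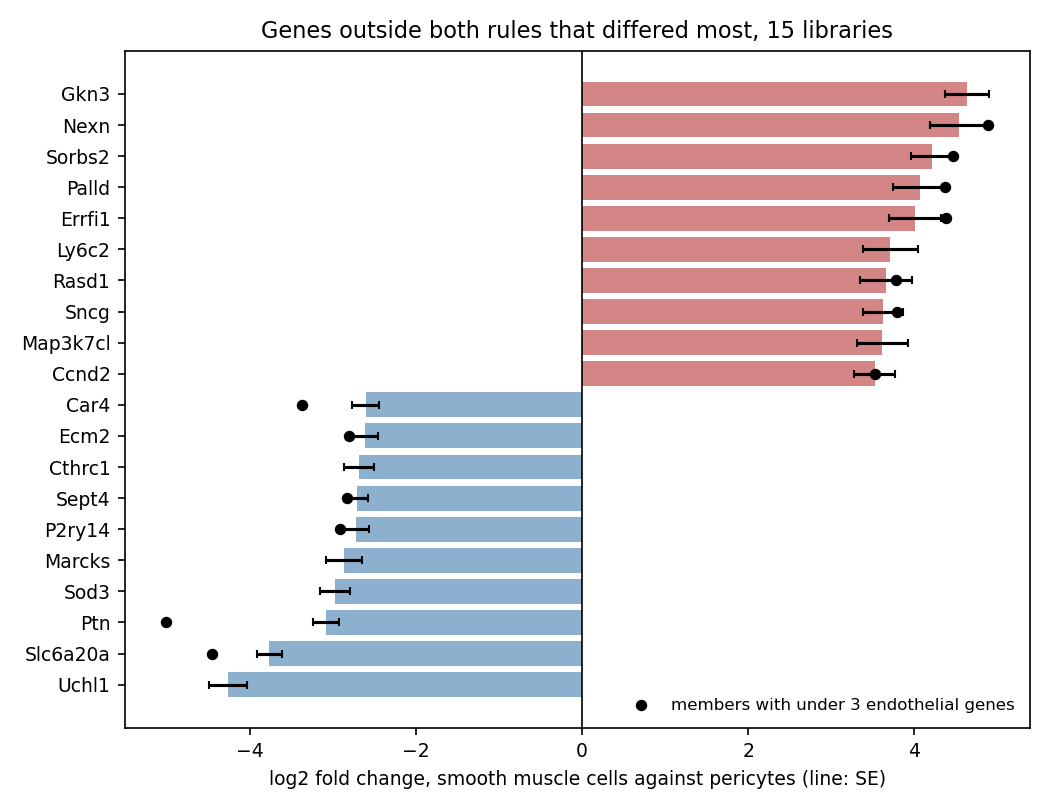
log2 fold change of smooth muscle cells against pericytes in 15 libraries for the 10 genes with the largest difference in each direction, outside both rules. Bars are the fit over all members, lines their SE, and points the fit without the 288 members that held 3 or more endothelial genes (no point where a gene had too few UMIs). Every point drawn lies on the side of its bar.

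The counts of a list are to be read against the 32.4% of all genes that were higher and the 25.7% that were lower. Of 20 contractile genes tested, 16 were higher in smooth muscle cells and 1, *Myl12a*, was lower, with a median log2 fold change of 1.89. *Myl12a*, a nonmuscle light chain, was at 912 CPM in the endothelial-bearing members and 293 CPM in the others. *Crip1* (2.93, SE 0.15), *Tpm1* (2.62, SE 0.15), *Flna* (2.65, SE 0.26) and *Mylk* (1.84, SE 0.18) were among the 16, as was *Cald1*, at 0.33 (SE 0.14, edgeR adjusted p = 0.046). *Cald1* stood at 2716 CPM in the 288 endothelial-bearing members, 7636 CPM in the others and 4099 ± 1315 CPM in pericytes, and its log2 fold change without the 288 was 0.52 (SE 0.10). Of 15 vasoactive genes tested, 4 were higher, a share near that of all genes, and 8 lower. *Olfr558* (2.67, SE 0.27, adjusted p = 2.0e-10, edgeR), *Rasd1*, *Rock1* and *Pde5a* were higher in smooth muscle cells, while *P2ry14*, *Rgs5* (-1.15), *Gucy1b3* (-1.01), *Gper1* (-0.75, adjusted p = 0.00040, edgeR), *Rhob*, *Prkg1*, *Gucy1a3* and *Rgs4* were lower. Of 11 mural transcription and Notch genes, *Klf2*, *Klf4* and *Hes1* were higher and 6, led by *Pdgfrb* (-2.29) and *Zic1* (-1.77) and with *Notch3* (-1.07) among them, were lower. *Klf2* and *Klf4* stood higher in the endothelial-bearing members, at 1826 and 1227 CPM, than in the others, at 832 and 477 CPM. Of 5 calcium and channel genes, the pumps *Atp2a2* (1.17) and *Atp2b1* (0.92) were higher and 3 were lower. The lowest of these stood at -2.45, and *Atp1b2* (-0.96) and *Ano1* (-0.54) were also among them. Of 9 matrix genes, 5 were higher, among them *Timp3* (2.25), *Mgp* (0.92) and *Sparcl1* (0.72), and *Itga1* and *Sparc* were lower. Without the 288 endothelial-bearing members *Mgp* stood at 0.20 (edgeR adjusted p = 0.313), and the calls of *Gucy1a3* (-0.29) and *Rgs4* (-0.21) were lost as well. All 5 endothelial markers tested were higher in the smooth muscle class, with a median of 2.17.

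Immediate early genes were also higher in smooth muscle cells than in pericytes. Of 20 such genes tested, 16 were higher, against 32.4% of all genes, and *Hspa1a* and *Rhob* lower, with a median log2 fold change of 1.20. *Atf3*, a stress-induced repressor, was at 1253 ± 379 CPM in the members and had a log2 fold change of 2.84 (SE 0.21, edgeR adjusted p = 3.9e-14), and *Fos* one of 1.04 (SE 0.14, edgeR adjusted p = 4.6e-08). The list summed to 25733 ± 3306 CPM in the members, 10593 ± 2113 CPM in pericytes, 18787 ± 2867 CPM in endothelial cells, 26151 ± 7797 CPM in fibroblasts and 8197 ± 889 CPM in all other kept cells. The cells had been incubated with papain before capture, and how much of these levels arose there was not tested.

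The share of smooth muscle cells among kept cells varied more within groups than between them. It was 0.859%, 2.64% and 3.33% in the 3 oil-treated wild-type mice, and 1.501%, 2.28%, 4.87%, 5.15% and 2.84% in the 5 tamoxifen-treated ones. In *Esr1*cKO mice it was 0.783%, 1.98%, 2.35% and 3.56% with oil and 2.61%, 2.49%, 3.70% and 4.73% with tamoxifen. All groups overlapped, with means of 2.28% ± 1.27, 3.33% ± 1.61, 2.17% ± 1.15 and 3.38% ± 1.05 (SD, n = 3, 5, 4 and 4). Tamoxifen minus oil was 1.05 percentage points in wild-type mice (two-sided exact permutation test, p = 0.375, smallest possible 0.0179) and 1.21 points in *Esr1*cKO mice (exact p = 0.143, smallest possible 0.0286). *Esr1*cKO minus wild-type was -0.11 points with oil (exact permutation p = 0.857) and 0.055 points with tamoxifen (exact permutation p = 0.968). Without the shared barcodes the same differences were 1.11, 1.22, -0.061 and 0.054 points (exact permutation p = 0.393, 0.2, 0.971 and 0.968), and without libraries 10 and 11 they were 1.58, 1.11, 0.419 and -0.049 points (exact permutation p = 0.190, 0.314, 0.8 and 0.929). Over the 4 tests of all libraries the smallest Benjamini-Hochberg adjusted exact p was 0.571. A share of kept cells depends on how many cells of each type survive dissociation as well as on the tissue.

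Shares went up with the library number instead. The 4 libraries numbered 1 to 4 had a mean of 1.44%, 5 to 8 of 2.35%, 9 to 12 of 3.56% and 13 to 16 of 4.07%. The median UMIs of a member ran from 444 to 594 in libraries 1 to 4, 610.0 to 836 in 5 to 8, 745 to 909 in 9 to 12 and 641 to 858 in 13 to 16, and the part of depth in the shares was not tested. Whether these fours are the 4 days of collection is not stated in the labels. Within fours, tamoxifen minus oil was positive in 4 of 4 in *Esr1*cKO mice, with a mean of 1.21 points (exact sign-flip permutation p = 0.125, the smallest that 4 pairs allow), and in 2 of 3 in wild-type mice, with a mean of 0.606 points (exact permutation p = 0.5). *Esr1*cKO minus wild-type was negative in 3 of 3 with oil, with a mean of -0.57 points (exact permutation p = 0.25, the smallest possible), and positive in 3 of 4 with tamoxifen, with a mean of 0.222 points (exact permutation p = 0.75).

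**Figure D4:**
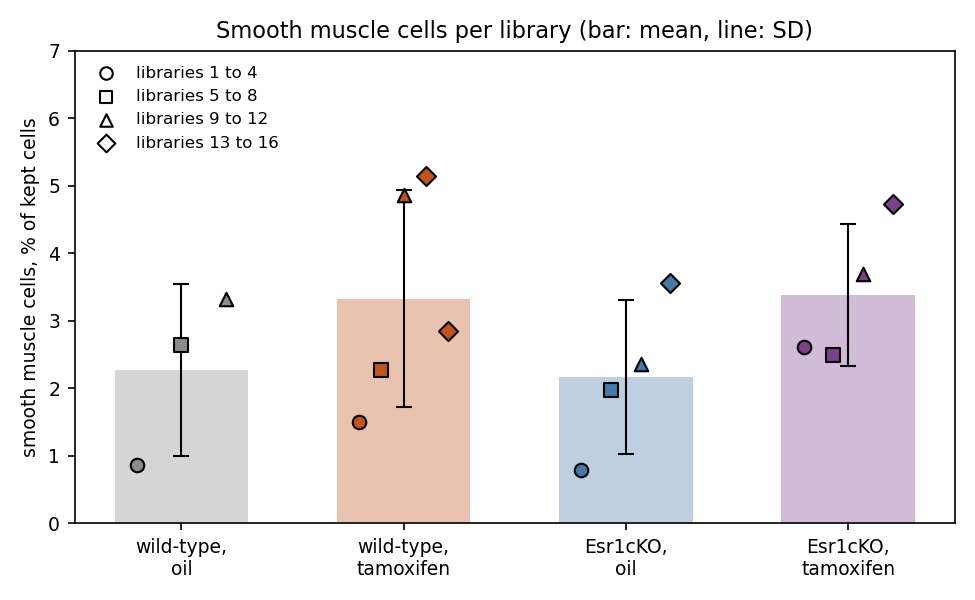
Smooth muscle cells as a percentage of kept cells, 1 point per library, with the group mean (bar) and SD (line). Marker shape gives the library numbers, 4 to a shape, and within each group the libraries 1 to 4 hold the lowest or second lowest share.

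Gene levels were then compared between conditions over summed members per mouse, with all 16 libraries in 1 edgeR quasi-likelihood fit of 2970 genes. No gene was called at an adjusted p under 0.05 in any of the 5 comparisons (0% of genes tested), and DESeq2 also called 0. In data simulated for tamoxifen in wild-type mice, edgeR called 16 of 100 genes changed 2-fold and 85 of 100 changed 4-fold. The lack of calls therefore does not show that 2-fold changes were absent. At an unadjusted p under 0.05, edgeR had 109 genes and DESeq2 58 for tamoxifen in wild-type mice. For tamoxifen in *Esr1*cKO mice these were 84 and 40, for *Esr1*cKO against wild-type 185 and 130 with oil and 54 and 18 with tamoxifen, and for the interaction of treatment and genotype 157 and 84. Without the barcodes that libraries share, edgeR again called 0 genes in each comparison. Without libraries 10 and 11 it called 1 of 2500 genes, *Gkn3*, in 2 of them, for *Esr1*cKO against wild-type with oil (log2 change 3.14 ± 0.65 SE, edgeR adjusted p = 0.037) and for the interaction (-3.81 ± 0.77 SE, edgeR adjusted p = 0.025). *Gkn3*, the gene of arterial endothelium that stood at 2416 CPM in the 288 members with endothelial genes and 17.1 CPM in the rest, was at 0, 263 and 994 CPM in the oil-treated wild-type mice, the last of them in library 10, and at 3766, 1068, 1824 and 1507 CPM in the oil-treated *Esr1*cKO mice. The smallest adjusted p of edgeR over all 16 libraries in the 5 comparisons lay between 0.596 and 0.9999. In these sums, fewer transcripts per cell and a smaller share of full smooth muscle cells among the members cannot be told apart.

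The comparison of *Esr1*cKO with wild-type mice given oil had the most genes at an unadjusted p under 0.05, 185 of 2970, or 6.23%. Of 31 contractile genes outside the rule 1 was among them, and 10 of the 31 had a positive log2 fold change, with a median of -0.24 against 0.09 over all genes. The members were chosen by finding the 8 rule markers, so the values of these markers in the groups are a description. All 8 had a negative log2 fold change, with a median of -0.35, and 0 were called. *Acta2* was at 11580.4, 9168 and 9919 CPM in the 3 oil-treated wild-type mice and at 4237, 6005, 7449 and 4931 CPM in the 4 oil-treated *Esr1*cKO mice. The log2 fold change was -0.70 (SE 0.23). With tamoxifen *Acta2* was at 5935, 7649, 6833, 9343 and 8979 CPM in wild-type and at 9495, 7773, 5925 and 7339 CPM in *Esr1*cKO mice (log2 fold change -0.02, SE 0.20). *Tagln* was at 2725, 1477 and 1577 CPM in oil-treated wild-type mice and at 800.3, 1021, 1055 and 776 CPM in oil-treated *Esr1*cKO mice (log2 change -0.83 ± 0.27 SE). *Olfr558* was at 681, 558 and 657 CPM against 235, 217, 331 and 297 CPM (log2 change -1.05 ± 0.27 SE, edgeR adjusted p = 0.596). These levels rested on 6, 51 and 80 UMIs against 5, 14, 37 and 39. Of 9 endothelial markers tested 0 were called in that comparison (smallest edgeR adjusted p = 0.675). All 9 had a positive log2 fold change, and 3 of the 9 had an unadjusted p under 0.05. The 10 markers of the list summed to 0, 3950 and 6955 CPM in the oil-treated wild-type mice and to 9886, 6717, 5759 and 9215 CPM in the oil-treated *Esr1*cKO mice, which overlapped, and the median log2 fold change of the 9 was 0.77. Members with at least 3 endothelial genes were 10.6% ± 9.26 and 24.0% ± 6.69 of the members (SD, n = 3 and 4). With those members left out, the comparison had 57 genes at an unadjusted p under 0.05 of 1645 tested, and 0 called by edgeR. The values of *Acta2*, *Tagln* and *Olfr558* in that fit are not reported here.

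**Figure D5:**
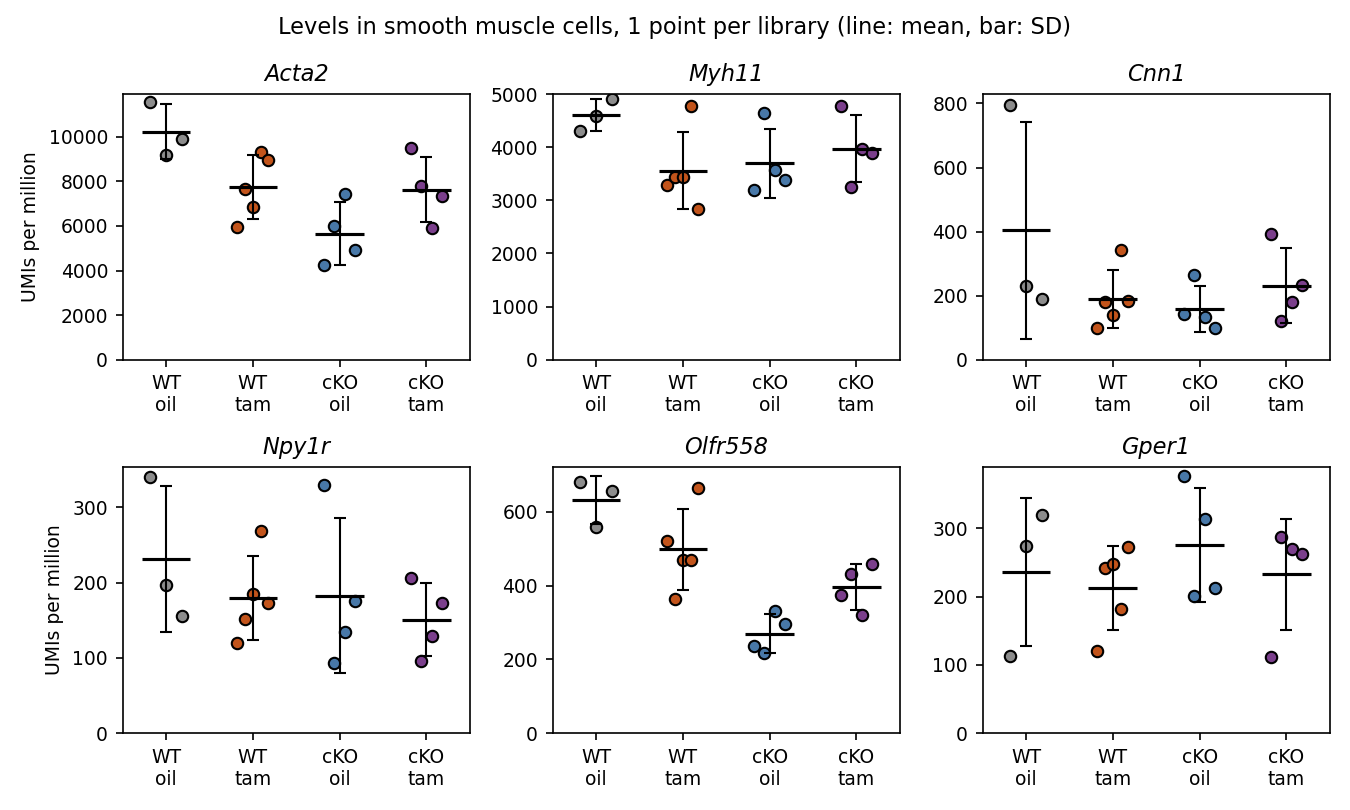
Levels in smooth muscle cells (CPM) of 6 genes in the 4 groups, 1 point per library, with the mean (line) and SD (bar). *Acta2* and *Myh11* are rule markers and are drawn as a description. *Olfr558* was not called between oil-treated wild-type and oil-treated *Esr1*cKO mice (adjusted p = 0.596, edgeR), and *Gper1* overlaps between all groups.

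Other genes with the smallest p were of low level. For *Esr1*cKO against wild-type with oil these were *Gimap6*, a GTPase of immune and endothelial cells, at 0, 32.8 and 24.6 against 235, 92.9, 116 and 137 CPM (log2 change 2.29 ± 0.55 SE, edgeR adjusted p = 0.596), and *Heg1*, an endothelial membrane protein, at a log2 fold change of 1.56 (SE 0.40). *Gimap6* was also first for the interaction (-2.83, SE 0.68, adjusted p = 0.916, edgeR), before *Sema5b* (-3.58) and *Ptprm* (-2.37), and second for tamoxifen in *Esr1*cKO mice (-1.39), between *Adipor2* (-1.34) and *Sdha* (1.09). In wild-type mice given tamoxifen, *Gnal*, *Ier3ip1* and *Bcas2* came first, with log2 fold changes of 2.67, 1.74 and 1.63 (edgeR adjusted p = 0.9997). For *Esr1*cKO against wild-type with tamoxifen these were *Ntrk2*, a neurotrophin receptor (-2.12), *Fbxo32*, a muscle ubiquitin ligase (0.91), and *Ifrd1* (-1.02). For the interaction the count depended on libraries numbered 5 and 6 (oil-treated wild-type mouse 2 and tamoxifen-treated *Esr1*cKO mouse 2), which an earlier analysis of these data described as standing apart. By the 2 measures that set libraries 10 and 11 apart they did not, with 0 far lower genes and correlations within 0.91 to 0.98. Without libraries 5 and 6, 15 genes were called lower, among them *Sema5b*, *Ptprm*, *Lyrm4*, *Alpk1* and *Vmp1*. Without oil-treated wild-type mouse 2 alone 2 were, *Lyrm4* and *Sema5b*. That group then rested on mice 1 and 3, with 15 and 107 members, and mouse 3 is library 10. Of the 15 genes, 7 had 0 UMIs in both mice, *Sema5b*, *Lyrm4*, *Macrod2*, *Myo7a*, *Rundc3b*, *Taf1c* and *Zfp943*, against 27 of 2970 genes tested. *Sema5b* also had 0 UMIs in library 11. Without libraries 10 and 11, none of the 15 was called, with *Sema5b* at -1.85 (SE 0.62, edgeR adjusted p = 0.441), *Ptprm* at -1.43 (SE 0.63, edgeR adjusted p = 0.687) and *Lyrm4* at -0.45 (SE 0.60, edgeR adjusted p = 0.932), and *Gnal* and *Bcas2* had too few UMIs for a test in wild-type mice given tamoxifen.

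*Gper1* did not pass the test in any comparison of conditions. It was at 114, 274 and 320 CPM in oil-treated and at 120, 242, 248, 182 and 273 CPM in tamoxifen-treated wild-type mice, and at 377, 201.2, 313 and 213 CPM and 112, 287, 270 and 262 CPM in the *Esr1*cKO groups. All 4 groups overlapped. The log2 fold changes were -0.31 (SE 0.32) for tamoxifen in wild-type mice, -0.12 (SE 0.31) in *Esr1*cKO mice, -0.04 (SE 0.34) and 0.14 (SE 0.28) for *Esr1*cKO against wild-type with oil and with tamoxifen, and 0.18 (SE 0.45) for the interaction, with adjusted p values between 0.997 and 0.9999 (edgeR).

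By list, 0 genes passed the threshold in any comparison of conditions, and no list was tested as a set. For tamoxifen in wild-type mice, 0 of 31 contractile genes tested were called, with a median log2 fold change of -0.14 against 0.06 over all genes, and 0 of 23 vasoactive genes, with a median of -0.06. In *Esr1*cKO mice the medians were 0.02 and -0.07, against -0.02 over all genes. The 25 immediate early genes had medians of 0.00 and -0.09 for tamoxifen in the 2 genotypes, and of 0.24 and 0.17 for *Esr1*cKO against wild-type with oil and with tamoxifen, where all genes stood at 0.09 and 0.00, again with 0 called. *Fos* was at 4253 ± 756, 4685 ± 772, 5483 ± 789 and 5294 ± 414 CPM in oil- and tamoxifen-treated wild-type and oil- and tamoxifen-treated *Esr1*cKO mice (SD, n = 3, 5, 4 and 4). For tamoxifen, 8 of 9 endothelial markers had a positive log2 fold change in wild-type mice (median 0.39) and 0 of 9 in *Esr1*cKO mice (median -0.41). All 4 red blood cell genes tested were positive in both genotypes, with medians of 0.88 and 0.69.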

How the data were processed

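Drop-seq 3′ libraries of 16 mice were used as gene-by-barcode matrices of UMI counts, which the authors deposited 1 per mouse and without normalization. The submitters' processing notes name STAR 2.6, Seurat and the mm10 build, and the counting annotation is not given in the sources used here. Barcodes had at least 20 genes (in libraries 10 and 11 at least 100) before the filters on cells, and kept cells had a median of 563 to 819 UMIs per library. Groups were taken from the labels and each mouse was 1 replicate. The members and all gene lists were chosen with earlier results of these data known, so that no list is independent evidence.

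UMIs were summed per mouse and class with at least 10 cells. Genes were filtered with filterByExpr, scaled by TMM and tested with edgeR 4.0.16 (quasi-likelihood, R 4.3.3, Benjamini-Hochberg over all genes tested, threshold 0.05), group means being fitted over all 16 libraries. The study compared cells with a rank test, but cells of 1 mouse are not replicates. The script was tested on data simulated for tamoxifen in wild-type mice, where it also called 3 of 2502 unchanged genes. Shares were compared with a two-sided exact permutation test (scipy 1.17.1). Intervals of shares are exact Clopper-Pearson at 95% and cover counting error only. No doublet caller was run, and the exclusion genes were the only guard. CPM values are of raw sums, while fold changes follow TMM.

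Named were the rule markers, *Esr1*, *Esr2*, *Pgr*, *Gper1*, listed genes with at least 50 UMIs, per condition comparison the genes called or else the 3 with the smallest p, against pericytes the 10 with the largest change in each direction with 1 direction in every library, and against other cells the 15 with the largest ratio. *Adra1a*, *Adra1b*, *Adra1d*, *Agtr1a*, *Avpr1a*, *Ptgir*, *Tcf21*, *Mfap4*, *Col1a1*, *Col3a1*, *Kcnj8* and *Nkx2-1*, which are under 50 UMIs, *B2m*, *Bsg* and *H2-D1*, *Myo3a*, and the genes called without libraries 5 and 6 or 10 and 11 were named after their values were seen. Alternatives were DESeq2 1.42.0, its size factors, no low-count filter, at least 4 markers, no exclusion gene, over 500 genes per cell, under 5% mitochondrial UMIs, leaving out each library or libraries 5 and 6, a term for these, fours of library numbers as a block, 1 genotype alone, at least 3 pericyte genes, thinning to 300 UMIs and shares among vascular cells. Leaving out endothelial-bearing members, shared barcodes or libraries 10 and 11, and shares within fours, were chosen after seeing the data. Results for some genes are not reported here.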

Additional observations from a re-analysis of the deposited data

Results flagged for a closer look

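Of 117 groups of values looked at, 7 had a library far from the rest of its group by Dixon's test, and chance gives about 1 in 20. The oil-treated wild-type group, of 3 mice, was not put to this test. Its red blood cell genes summed to 227, 8676 and 131 CPM. Red blood cell genes summed to 18468 CPM in the members of tamoxifen-treated wild-type mouse 3, against 197 to 4854 CPM in the other 4 mice of its group. They summed to 6628 CPM in oil-treated *Esr1*cKO mouse 4, against 94.2 to 572 CPM, and to 10472 CPM in tamoxifen-treated *Esr1*cKO mouse 3, against 763 to 1514 CPM. Members under 3 endothelial genes held a mean of 745 CPM of these genes over the 16 libraries, against 3781 CPM in all members.

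Microglia markers stood at 263 CPM in the members of tamoxifen-treated *Esr1*cKO mouse 2, one of the libraries described as standing apart, against 18.7 to 35.8 CPM in the other 3. *Pln* was at 835 CPM in tamoxifen-treated wild-type mouse 3, against 1183 to 1311 CPM, and *Mustn1* at 449 CPM in oil-treated *Esr1*cKO mouse 4, against 800.3 to 820.3 CPM. Both of these libraries are also those with the high red blood cell genes. *Gper1* was at 112 CPM in tamoxifen-treated *Esr1*cKO mouse 1, against 262 to 287 CPM, and without that library its log2 fold change for tamoxifen in *Esr1*cKO mice went from -0.12 to 0.04. What set these libraries apart was not tested.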

How the results depend on the processing

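No paired analysis was possible because the labels give no replicate numbers that groups share. The replicate numbers used here follow accession order, and the fours of library numbers, used for shares within fours and as a block, are no pairing that the labels give. The share of members kept its direction for tamoxifen in both genotypes under all alternatives, at 0.343 to 4.88 points in wild-type and 0.751 to 4.17 in *Esr1*cKO mice, where the highest values are shares among vascular cells. For *Esr1*cKO against wild-type the difference was near 0 and changed sign. With oil it was 0.0116 points at under 5% mitochondrial UMIs, 0.0757 without libraries 5 and 6, 0.419 without libraries 10 and 11, and -0.81 to 0.419 over the libraries left out 1 at a time. With tamoxifen it was -0.017 with no exclusion gene, -0.36 at over 500 genes, -0.033 at under 5% mitochondrial UMIs, -1.001 among vascular cells, -0.078 in thinned cells, -0.0035 without endothelial-bearing members, -0.049 without libraries 10 and 11, and -0.40 to 0.510 over the libraries left out. No share passed the exact test under any of these, but some could not have. For *Esr1*cKO against wild-type with oil, the smallest possible exact permutation p was 0.0667 or 0.1 with 1 library left out. It was 0.0667 without libraries 5 and 6 or 10 and 11. Within fours, the smallest possible exact sign-flip p was 0.125 or 0.25 in every comparison.

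With no low-count filter, 2, 2, 3 and 1 genes were called for tamoxifen in wild-type mice, *Esr1*cKO against wild-type with oil and with tamoxifen, and the interaction. Leaving out 1 library gave 0 to 1 genes for tamoxifen in wild-type mice and 0 to 2 for the interaction, both highest without oil-treated wild-type mouse 2, and 0 in the other 3 comparisons. The interaction had 15 genes without libraries 5 and 6. Without libraries 10 and 11 it had 1, as did *Esr1*cKO against wild-type with oil.

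Against pericytes, higher and lower genes numbered 109 and 104 with no exclusion gene, 51 and 33 at under 5% mitochondrial UMIs (3 libraries), 1953 and 272 with no low-count filter, and 156 to 228 and 149 to 196 with 1 library left out. There were 132 higher genes in wild-type libraries alone and 117 without endothelial-bearing members. The fit at over 500 genes per cell was not run, since 1 library had 10 cells of each class. The causes of these changes were not tested.

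*Gper1* changed sign for tamoxifen in *Esr1*cKO mice at over 500 genes (log2 0.0296), and for *Esr1*cKO against wild-type with oil with no exclusion gene (0.19), a term for libraries 5 and 6 (0.0137), fours as a block (0.0270), no endothelial-bearing members (0.18) and without libraries 10 and 11 (0.0967), which also turned the interaction (-0.034). With libraries left out 1 at a time it lay between -0.23 and 0.0429 for the first, the highest without tamoxifen-treated *Esr1*cKO mouse 1, between -0.18 and 0.13 for the second, and between -0.00160 and 0.35 for the interaction, the highest of the second and the lowest of the third without oil-treated wild-type mouse 3. The shallowest library rests on 8808 UMIs.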

Other observations

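Matrix genes gave a further description of the members. Of 34 genes of the extracellular matrix and basement membrane, 24 had a higher mean CPM in the members than in other kept cells, and 12 in all 16 libraries. The integrin *Itga8* stood at 202 ± 131 CPM against 13.1 CPM in other kept cells and *Ltbp1*, which stores latent TGF-beta in the matrix, at 216 ± 99.7 CPM against 26.7 CPM. *Mgp*, an inhibitor of vessel calcification, was at 1447 ± 822 CPM, and at 2022 CPM in the 288 endothelial-bearing members against 944 CPM in the others. *Eln*, elastin, had 85 UMIs, at 84.8 against 22.8 CPM in the same split, and *Fbln2* was at 189 against 4.74 CPM. The fibrillar collagen genes *Col1a1* and *Col3a1* had 16 and 24 UMIs in the 1741 members, and *Mfap4* had 0.

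Potassium channel genes were looked at in both mural classes. *Kcnj8* and *Abcc9*, the subunits of the vascular ATP-sensitive channel and genes of the pericyte rule, stood at 20.7 and 28.4 CPM in the members and at 1218 and 1439 CPM in pericytes. *Kcnab1* and *Kcna5*, of voltage-gated channels, stood at 180 ± 96.3 and 70.4 ± 35.6 CPM in the members and at 7.66 and 5.67 CPM in pericytes, and *Kcnmb1*, of the calcium-activated channel, at 78.3 and 103 CPM. These 3 had too few UMIs for the test and the first 2 chose the pericytes, so all of these values are a description.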
